A study of Mus musculus with 5 samples.

Results

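The comparison set an organoid line grown out of a subcutaneous mouse tumour with the lesion Apc580D and loss of Trp53 against a control gastric organoid line. Organoids are clusters of epithelial cells grown in gel from stomach tissue. The comparison held 16900 of the 17583 genes measured in the series, those whose probe spot was well above background by the scanner software on the Apc array, the control array or both (39813 of 59305 spots). The rule used no difference in level, but 1232 of the genes passed it on the Apc array and not the control, and 367 the reverse.

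5 arrays were analysed, 1 per sample, all labelled as stomach and female and all grown in the same serum-free medium with EGF, R-spondin1, Noggin, Y27632, Jagged-1 and the GSK3 inhibitor CHIR-99021. The control came from Trp53flox/flox mice, carried the vector pLKO.1 with the hairpin shLuc against luciferase, and was taken before inoculation. Its labels name no Trp53 loss. The 4 tumour-derived organoids all had Trp53 loss, combined with shCdh1 #1 (hairpin 1), shCdh1 #2 (hairpin 2), Apc580D (Apc) or Pik3caH1047R (Pik3ca). The Apc line and the control were 1 array each, so their difference has no replicate check. Trp53 loss, the Apc lesion, growth and recovery as a tumour, the line and its donor, and the slide cannot be told apart in that difference, since the control and both hairpins lay on slide 1 and Apc and Pik3ca on slide 2. The 3 other tumour-derived arrays show which differences from the control were found in the Apc array and not in them. The labels do not say whether any of the lines came from a shared culture or animal.

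Apc is the scaffold of the complex in which Axin and the kinases CK1 and GSK3 phosphorylate beta-catenin and mark it for degradation. When Wnt ligands bind Frizzled and LRP receptors, or when Apc is truncated, beta-catenin accumulates and acts with TCF/LEF factors on target genes, several of which encode inhibitors of the same pathway. In the stomach and intestine this pathway maintains stem cells, and R-spondin and a GSK3 inhibitor in the medium activate it from outside the cell and inside it. Both agents were present for the control too.

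Levels are given as log2 of the processed signal minus the array's 75th percentile, so that 0 is the 75th percentile of that array. Levels of different genes are not compared. Between 36661 and 38710 spots per array were well above background (61.8% to 65.3%, with Apc the highest), and an array's 75th percentile exceeded its median local background 24.0-fold to 27.9-fold. Precision is limited by the number of arrays. The Pik3ca array went against its labels: the Y-linked genes Uty, Kdm5d, Eif2s3y and Ddx3y exceeded background on it alone, and Xist, the RNA that silences one X chromosome in female cells, stood at −8.14 there, not well above background, against −0.90 to −0.69 on the 4 other arrays. The main counts that use the Pik3ca array are therefore also given without it.

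The targeted genes were examined first. The Apc probe stood at −2.89 in the control, −2.97 and −3.15 with hairpins 1 and 2, −3.24 in Apc and −3.36 in Pik3ca. The Apc array was thus not the lowest, and because the position of the probe relative to the lesion is not known here, this level does not check the Apc label. Trp53 stood at 0.85 in the control and at −5.86 in Apc, 105-fold lower, with the 3 other tumours between −5.09 and −4.86. Cdh1, which encodes E-cadherin, stood at 4.39 in the control, 4.48 in Apc and 4.58 in Pik3ca, and at 0.07 and 0.26 with the hairpins. The epithelial marker Epcam stood at 3.15 in the control and 3.77 in Apc.

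The 3 genes that mark Wnt activity were all higher in the Apc organoid than on each of the 4 other arrays. Axin2, a negative-feedback scaffold of the destruction complex, stood at −1.19 in the control, −2.43 and −1.18 with hairpins 1 and 2, 1.13 in Apc and −0.83 in Pik3ca, which is 4.99-fold above the control. Nkd1, an inhibitor of Dishevelled, stood at −1.80, −5.56, 1.13, 3.60 and −3.22 in the same order, 42.3-fold above the control. Apcdd1, a membrane inhibitor of Wnt signalling, stood at −5.98, −5.62, −2.68, 0.29 and −3.04, 76.9-fold above the control. On the next highest array Axin2 was 3.89-fold, Nkd1 5.55-fold and Apcdd1 7.82-fold lower than in Apc. For Nkd1 and Apcdd1 hairpin 2 lay between Apc and the control, while for Axin2 it was level with the control.

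Of all 16900 genes, 11.2% were at least 2-fold higher and 6.38% at least 2-fold lower in Apc than in the control, 17.6% in all, and 2.8% were at least 2-fold above and 0.266% at least 2-fold below all 4 other arrays. These shares are the background for the lists that follow. All such counts use measured signals, also where one side was not well above background. With the dim side set to its bound, 8.77% were at least 2-fold higher, and the count at the bound is given where it differs for a list. Among 9 measured genes of 10 in a list of Wnt feedback inhibitors, 7 were at least 2-fold higher (6 at the bound) and 0 lower, with a median difference of 2.32 on the log2 scale against −0.01 over all genes. The same median was 0.25 in hairpin 1, 0.21 in hairpin 2 and 0.45 in Pik3ca. 6 of the 9 were measured at least 2-fold above all 4 other arrays, with or without Pik3ca, and 5 were so with dim signals at their bound: Axin2, Nkd1, Apcdd1, Znrf3 and Wif1. Wif1, a secreted protein that binds Wnt ligands, stood at −1.05 in Apc and was not well above background on any other array, which makes it at least 32.3-fold higher than in the control. Dkk4, a secreted antagonist of the LRP co-receptors, was well above background in Apc alone, at −5.27. It is the 1 other gene of these counts, and its bound over the control is only 1.74-fold. Znrf3, a ligase that removes Frizzled receptors from the cell surface, stood at 1.18 in Apc against −0.27 to 0.08 elsewhere. Its partner Rnf43 was 1.91-fold and the Wnt deacylase Notum 2.36-fold above the control. Nkd2 stood at 0.58 in the control and 0.78 in Apc, and Dkk1 was not well above background on either.

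Stem cell and transcription targets were divided. 6 of 16 were at least 2-fold higher and 0 lower, with a median of 0.46. Lef1, a TCF/LEF factor that is itself a Wnt target, stood at −0.45 in Apc and between −8.04 and −6.19 on the other arrays, none of them well above background, so that it was at least 49.2-fold above the control. Prox1, a homeobox factor of Wnt-driven intestinal tumours, stood at −5.60 in the control, −6.70 and −1.65 with hairpins 1 and 2, 1.26 in Apc and −6.40 in Pik3ca, 116-fold above the control. Sp5, a transcription factor gene induced by Wnt, stood at 1.68, −0.12, 0.83, 2.98 and 0.29 in that order, 2.47-fold above the control. Lef1, Prox1 and Sp5 were the 3 members at least 2-fold above all 4 other arrays (4 members without Pik3ca). Tcf7 (3.64-fold), Bambi (3.44-fold) and the receptor gene Tnfrsf19 (2.87-fold) were also higher than in the control, with another tumour within 2-fold of Apc. Lgr5, the R-spondin receptor of stem cells, stood at 2.33 in the control and 2.66 in Apc, inside the 2.25 to 2.75 spanned by all 5 arrays. Ascl2, Cd44, Ccnd1, Ephb2, Ephb3, Myc, Smoc2, Sox4 and Sox9 also lay within 2-fold of the control. Over both lists, 13 of 25 measured genes were higher (12 at the bound), 9 were outside all 4 other arrays (8 at the bound, 10 without Pik3ca), and the median was 1.24, against −0.08, 0.21 and 0.28 in hairpin 1, hairpin 2 and Pik3ca.

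**Figure D1:**
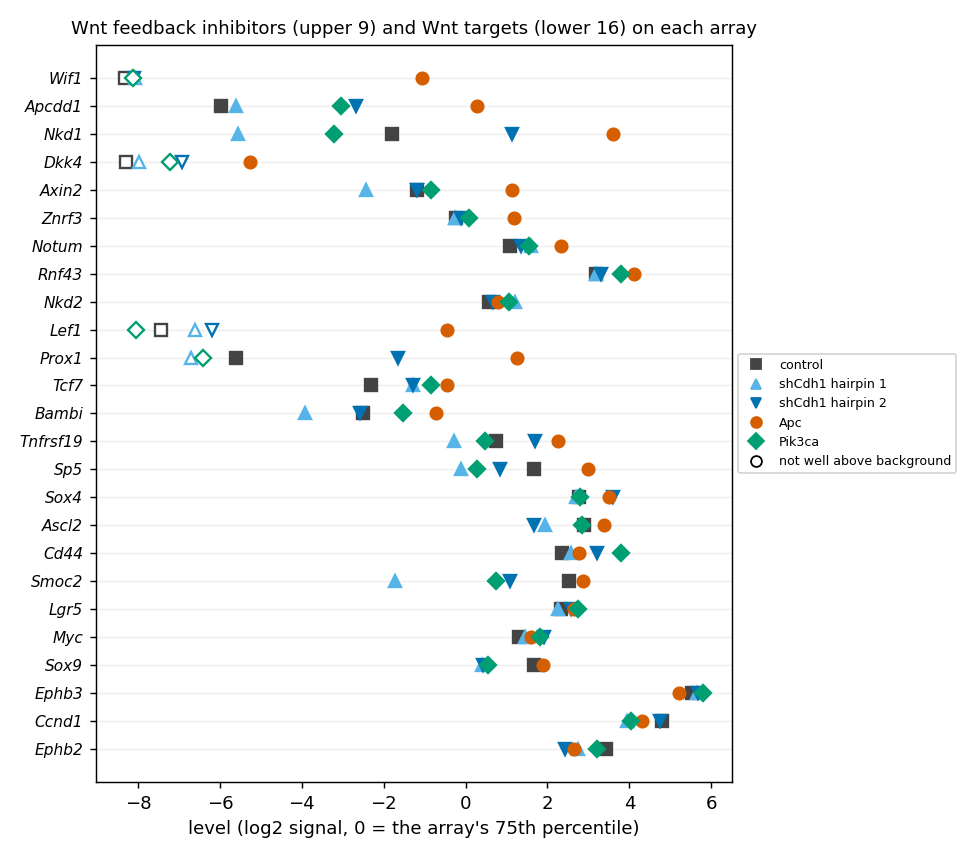
Levels of Wnt pathway genes (rows) on the 5 arrays, as log2 signal with 0 at the array's 75th percentile on the horizontal axis. Each marker is 1 array and open markers were not well above background. Axin2 at 1.13, Nkd1 at 3.60 and Apcdd1 at 0.29 in Apc lie to the right of all other arrays, whereas Lgr5 at 2.66 lies among them.

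Promoters of 15 of the 25 Wnt feedback and target genes could be read from RefSeq sequences of build GRCm38.p6, as the 250 bases before the gene start. They were searched on both strands for the TCF/LEF core CTTTGAT, which occurs in 3.21% of 32851 promoter windows of this length and in 3.72% of 27025 genes. 2 of the 15 genes had it, Sp5 and Tnfrsf19, and both were among the 8 genes with a window that were at least 2-fold higher in Apc. Both windows are shown 5′ to 3′ on the gene's strand because they hold the match, in capitals on either strand, in genes that were higher in the Apc organoid. Neither holds a match to the interferon motif searched further below.
Sp5, chr2:70474673-70474922, plus strand: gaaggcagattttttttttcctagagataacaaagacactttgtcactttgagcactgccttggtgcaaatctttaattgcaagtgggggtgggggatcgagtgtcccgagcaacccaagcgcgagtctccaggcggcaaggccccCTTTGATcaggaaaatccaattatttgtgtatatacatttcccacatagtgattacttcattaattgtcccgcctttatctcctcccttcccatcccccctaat
Tnfrsf19, chr14:61037988-61038237, minus strand: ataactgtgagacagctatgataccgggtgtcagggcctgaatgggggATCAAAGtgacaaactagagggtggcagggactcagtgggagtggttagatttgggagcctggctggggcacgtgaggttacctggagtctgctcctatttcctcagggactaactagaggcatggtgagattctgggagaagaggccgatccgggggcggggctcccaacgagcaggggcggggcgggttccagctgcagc
The match is in the gene's own orientation in Sp5 and in the opposite one in Tnfrsf19. A match describes these letters and not bound factor, and 13 of the 15 windows had none.

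Upstream of the receptors, 9 of 12 measured Wnt ligands were at least 2-fold higher and 0 lower, with a median of 2.82. With hairpin 2, 8 of the 12 were also higher and 0 lower, with a median of 1.23. In Pik3ca 4 were higher and 0 lower (median 0.49), and with hairpin 1 3 were higher and 3 lower (median 0.10). Wnt6 stood at −3.90 in the control, −5.02 and 0.70 with hairpins 1 and 2, 2.74 in Apc and −4.08 in Pik3ca, 100.3-fold above the control. Wnt7a stood at −3.12, −1.72, −0.59, 1.38 and 0.23, 22.7-fold above the control. Both were highest in Apc, and Wnt9a (8.37-fold) and Wnt10b (at least 5.04-fold) were likewise at least 2-fold above all other arrays, which made 4 ligands with or without Pik3ca. Wnt10a and Wnt7b were not highest in Apc. Wnt10a stood at 2.27 in Apc and 3.27 with hairpin 2 against −1.88 in the control, and Wnt7b was higher in hairpin 2 and Pik3ca than in Apc. Of the 7 ligands not well above background in Apc or control, Wnt3, a ligand of the intestinal crypt, is one.

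Among receptors, 6 of 17 were at least 2-fold higher (5 at the bound) and 1 lower, with a median of 0.54. Fzd10, a Frizzled receptor, stood at −0.41 in Apc and between −8.16 and −8.00 elsewhere, with no other array well above background. It was at least 50.5-fold above the control. The co-receptor Ror1 had the same pattern and was at least 12.5-fold higher. Fzd3 was 3.13-fold lower in Apc, and lower still in Pik3ca at −4.17. Of the secreted modulators, 4 of 9 were higher (3 at the bound) and 0 lower, with a median of 0.60. Hairpin 2 and Pik3ca also had 4 of these 9 higher, and hairpin 1 had 0. Their medians were 0.66, 0.99 and 0.22, so this list was not highest in Apc. Dkk3, of the Dickkopf family, stood at 2.22 in Apc, −6.40 in the control, −5.96 and −4.26 with hairpins 1 and 2 and −5.05 in Pik3ca, which made it at least 312-fold higher than in the control and 89.3-fold above the next array. Dkk2 was well above background in Apc alone (at least 99.4-fold). Sfrp2, a soluble Frizzled-related protein, was higher in Apc (at least 7.11-fold) and stood at −3.69 in Pik3ca against −3.24 in Apc.

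The intracellular machinery differed little. 2 of 25 measured genes of the destruction complex and the beta-catenin partners were at least 2-fold higher, the repressors Tle1 (2.27-fold) and Tcf7l1 (2.58-fold), and 0 were lower. Ctnnb1, which encodes beta-catenin, stood between 3.45 and 3.83 on all 5 arrays, with Apc at 3.73.

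Across the comparison, 1895 of 16900 genes were at least 2-fold higher in Apc (11.2%) and 1078 at least 2-fold lower (6.38%). Of the higher genes 1015 were well above background on both arrays and 880 were not in the control. Of the lower genes 854 were on both and 224 were not in Apc. 473 genes were at least 2-fold above all 4 other arrays, 225 of them on the Apc array alone, and 45 were at least 2-fold below all 4. Without Pik3ca these counts were 666 and 85. With dim signals at their bound, 1482 genes were higher, 968 lower and 362 above all others. With the normexp background correction the counts higher, lower, above all and below all were 843, 610, 184 and 7. The same count over 17583 genes was 487 above and 556 below for the control, 73 and 219 for hairpin 1, 170 and 157 for hairpin 2, 473 and 79 for Apc, and 304 and 162 for Pik3ca. Among the tumours, Apc thus had the most genes above all others. The counts are not alike, since each hairpin was also set against the other array with a Cdh1 hairpin. They use measured signals, and the Apc array had the most spots well above background. For Apc the count below differs from 45 because genes well above background on neither the Apc nor the control array enter it.

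**Figure D2:**
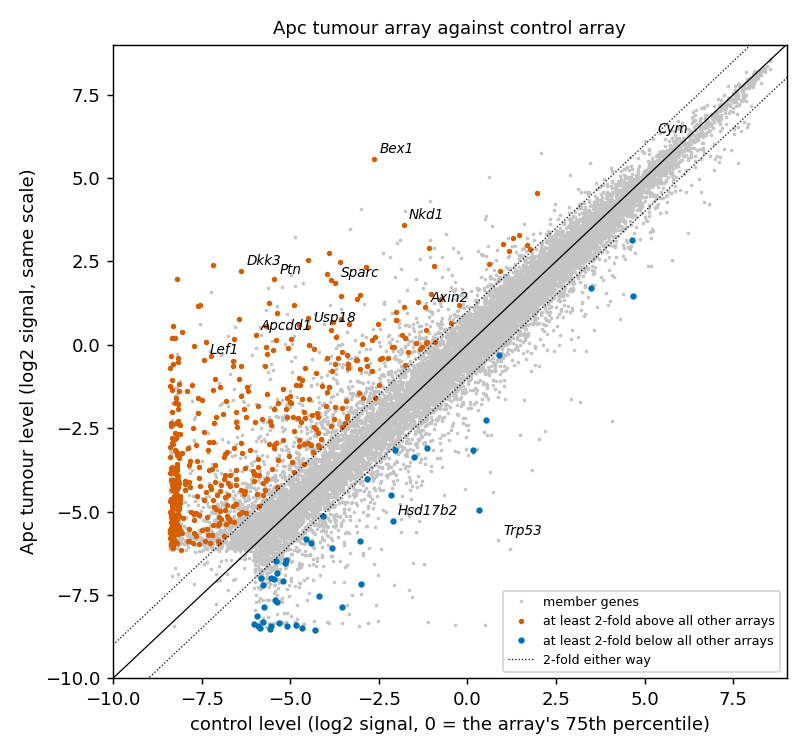
Level of each of 16900 genes in the control (horizontal axis) and in the Apc tumour organoid (vertical axis), as log2 signal with 0 at the array's 75th percentile. Each point is 1 gene, and the 473 genes at least 2-fold above and the 45 at least 2-fold below all 4 other arrays are coloured. More coloured points lie above the diagonal than below it.

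Of the 1895 higher genes, 425 were at least 2-fold higher in no other tumour, 443 in 1, 520 in 2 and 507 in all 3. Of the 1078 lower genes the counts were 147, 201, 243 and 487. The lower genes were thus most often those lower in every tumour, although all 4 differences share the 1 control array. With Pik3ca left out, 562 higher and 534 lower genes were also so in both hairpins.

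Single genes stood far above every other array in Apc. Bex1, a small adaptor-like protein known from neurons, stood at −2.64 in the control, −1.54 and 1.41 with hairpins 1 and 2, 5.58 in Apc and −0.24 in Pik3ca, 297-fold above the control and 18.0-fold above the next array. Bex4 was well above background in Apc alone and at least 350-fold higher, although probes of this X-linked family may share sequence. Ptn, the heparin-binding growth factor pleiotrophin, stood at −5.44, −4.86, −5.28, 1.96 and −3.16, 169.6-fold above the control and 34.8-fold above the next array. Igfbp2, which binds insulin-like growth factors, was 67.8-fold higher, and Krt17, a keratin of basal and injured epithelium, was 8.97-fold higher. The chemokine gene Ccl2 (11.1-fold) and the growth factor gene Tgfb3 (5.91-fold) were also at least 2-fold above all other arrays.

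A test across tumours could be fitted for the difference between the lone Apc array and the 3 others, with Apc assumed to vary like them. limma with Benjamini-Hochberg adjustment over 17583 genes called 43 genes higher in Apc (0.245%) and 1 lower (0.00569%), where 1016 had an unadjusted p under 0.05. 41 of the 43 had no other tumour array well above background, so their error is the spread of signals near background and their size is known only as a bound. With signals well above background required on all 5 arrays, limma called 0 genes (668 at an unadjusted p under 0.05). All 44 calls also ended, with 0 genes passing, when hairpin 1, hairpin 2 or Pik3ca was left out (896, 1383 and 1038 genes at an unadjusted p under 0.05), and with the slide as a block (1083). The fits with a tumour left out or the slide as a block have fewer residual degrees of freedom than the main fit. In simulated data the fit against the control, which has 1, recovered 0 of 200 shifted genes at each shift. The ending of the calls therefore cannot show that they are unstable. Nothing says that the tumours came from separate animals. The error behind these p-values is the spread among the 3 other tumours, whose lesions are not all the same. It holds nothing on how the Apc line varies. Among the tumours, most of the called genes passed the filter only through the Apc array, where they are high. The calls are therefore no check on those differences.

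The 10 called genes with the largest differences were all above 3 of 3 other tumours, and 9 of them have a bound. Pid1, an adaptor of lipoprotein receptors, was at least 58.3-fold higher than in the other tumours. Gxylt2, a xylosyltransferase acting on Notch, was at least 47.4-fold, Fzd10 at least 45.2-fold and Wif1 at least 28.9-fold higher. For Stac the bound was 23.0-fold, for Slc22a29 21.9-fold, for Prkcq 17.9-fold, for Hspb2 12.1-fold and for Irx1 11.2-fold. Slc22a29 was also well above background in the control, at −3.07, and in Apc it was only 3.06-fold above that. Lmo2, a LIM-domain partner of blood-forming transcription factors, stood at 1.20 in Apc and −6.68 in Pik3ca. The latter lies under that array's dimmest level well above background, −5.92. Another probe of Lmo2 was well above background in Pik3ca, so no bound is given. Bex2 and Xlr3a, also called higher than in the other tumours, were not above the control. Bex2 stood at −3.87 in Apc and −3.78 in the control, and Xlr3a at −4.18 and −2.07, 4.30-fold lower in Apc. 41 of the 43 were measured at least 2-fold above the control. The limma fit against the control called 0 genes, with 1586 at an unadjusted p under 0.05 and a lowest adjusted p of 0.21.

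**Figure D3:**
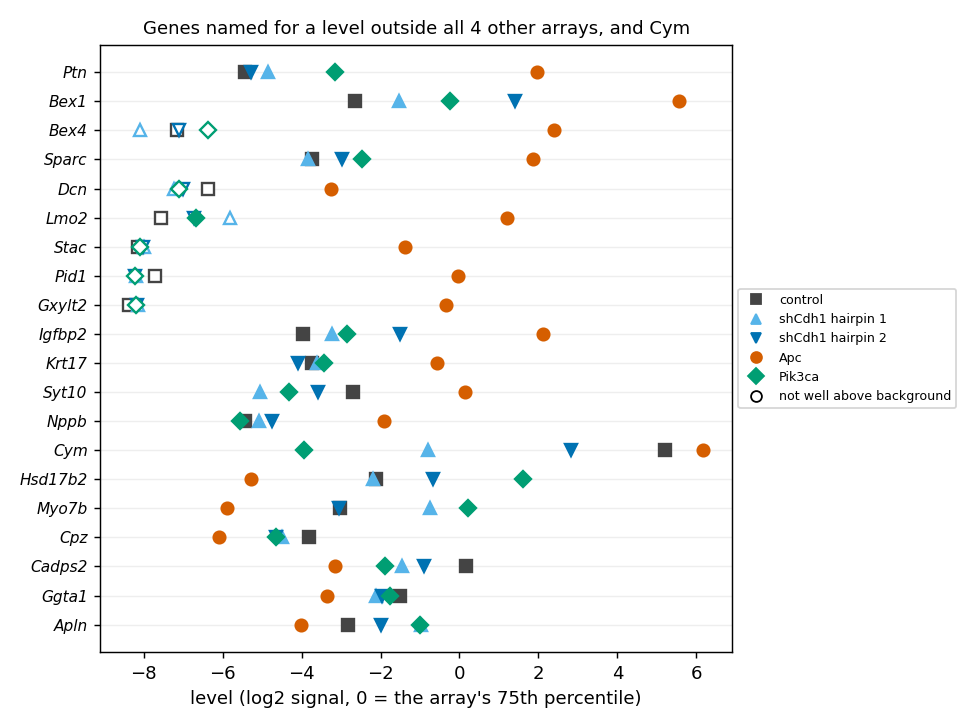
Levels of genes named for a level outside all 4 other arrays, with Cym for the gastric markers (rows), as log2 signal with 0 at the array's 75th percentile on the horizontal axis. Each marker is 1 array and open markers were not well above background. Apc stands alone at 1.96 for Ptn and 5.58 for Bex1 on the high side, and at −5.28 for Hsd17b2 on the low side.

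Fewer genes were lowest in Apc. Hsd17b2, which inactivates oestradiol and testosterone, stood at −2.11 in the control, −2.20 and −0.68 with hairpins 1 and 2, −5.28 in Apc and 1.61 in Pik3ca, 8.46-fold below the next lowest array. Myo7b, a myosin of intestinal microvilli, stood at −3.03, −0.74, −3.04, −5.90 and 0.21, 7.23-fold below the next lowest. Ugt1a6b, a glucuronidation enzyme, was 3.11-fold below it, although the first exons of the Ugt1a locus share downstream sequence. Apln, a vascular peptide, and Aim2, a cytosolic DNA sensor, stood at −4.01 and −3.08 in Apc and were also at least 2-fold below all others.

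Interferon-stimulated genes were higher in the Apc organoid. These genes are induced through interferon receptors by factors that bind the interferon-stimulated response element, and many encode antiviral proteins. 24 of 35 measured genes were at least 2-fold higher and 0 lower, with a median of 2.20, against 0.33 in hairpin 1, 0.45 in hairpin 2 and 1.13 in Pik3ca. With the normexp background correction the median in Apc was 1.19. 29 of the 35 were highest in Apc, as were 2553 of all 16900 genes. 14 of the 35 were at least 2-fold above all 4 other arrays, and 19 were so without Pik3ca. In Pik3ca itself 19 were at least 2-fold above the control, where 10.8% of all genes were, and 11 and 10 with hairpins 1 and 2, where 7.16% and 9.57% were.

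Rsad2, the antiviral protein viperin, stood at −5.72 in the control, −2.54 and −2.86 with hairpins 1 and 2, −0.62 in Apc and −2.77 in Pik3ca. It was 34.3-fold above the control in Apc, with the 3 other tumours between. Usp18, which removes ISG15 from proteins and dampens interferon signalling, stood at −4.51, −3.72, −3.24, 0.53 and −3.28, 32.9-fold above the control and 13.6-fold above the next array. Isg15, a ubiquitin-like modifier, stood at −1.06, 0.75, 0.55, 2.63 and 1.95, 13.0-fold above the control. Ifit1, which binds foreign RNA, stood at −4.60, −3.36, −3.19, −0.71 and −1.92, 14.8-fold above the control. Isg15 thus was within 2-fold in Pik3ca, and the chemokine gene Cxcl10 (28.5-fold) was within 2-fold in hairpin 2, at 2.06 against 2.64. Rtp4 stood at 2.37 in Apc against −0.98 to 0.68 elsewhere. Ifih1 and Ifi35 were within 2-fold of the control.

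**Figure D4:**
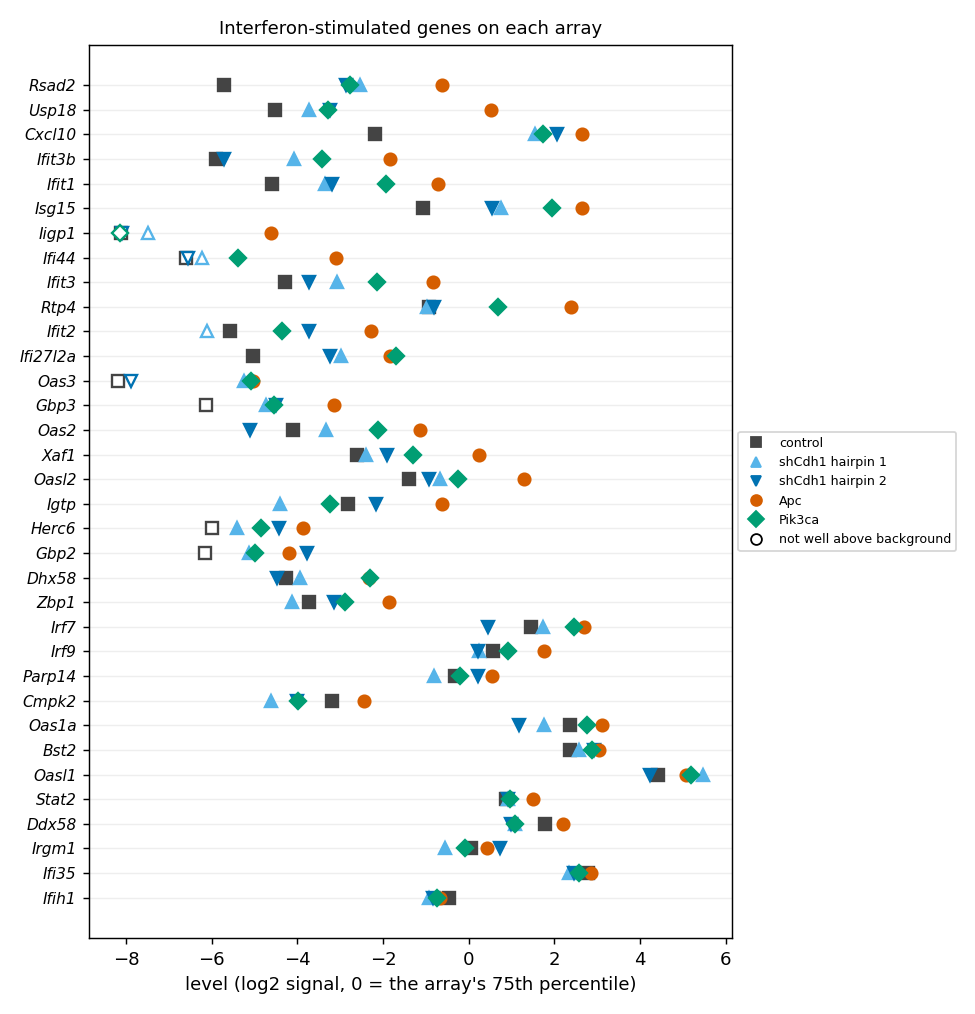
Levels of interferon-stimulated genes (rows) on the 5 arrays, as log2 signal with 0 at the array's 75th percentile on the horizontal axis. Each marker is 1 array and open markers were not well above background. Apc is the highest array for most of them, among them Usp18 at 0.53.

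The promoters of 26 of these 35 genes could be read. The core of the response element, GAAA repeated after any 2 bases, was searched on both strands of the 250 bases before the start. It was present in 14 of them, 10 of which were among the 17 genes with a window that were at least 2-fold higher. The core occurs in 2.98% of all windows and in 3.46% of genes. Because the list holds genes known to respond to interferon, this count is a description of the list. The windows of Isg15, Ifit1 and Rsad2 are shown as the genes whose levels were given above, with the matches in capitals. None holds CTTTGAT on either strand.
Isg15, chr4:156200819-156201068, minus strand: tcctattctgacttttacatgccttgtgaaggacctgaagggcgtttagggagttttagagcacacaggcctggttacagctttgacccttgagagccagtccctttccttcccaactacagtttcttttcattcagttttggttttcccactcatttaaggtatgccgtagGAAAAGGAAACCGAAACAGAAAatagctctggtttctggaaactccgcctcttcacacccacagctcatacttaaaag
Ifit1, chr19:34640639-34640888, plus strand: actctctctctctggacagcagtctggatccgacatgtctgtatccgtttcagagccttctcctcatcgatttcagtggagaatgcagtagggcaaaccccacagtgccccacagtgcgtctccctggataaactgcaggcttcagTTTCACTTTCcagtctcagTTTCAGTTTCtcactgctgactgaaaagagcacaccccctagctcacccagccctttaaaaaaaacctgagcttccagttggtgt
Rsad2, chr12:26456453-26456702, minus strand: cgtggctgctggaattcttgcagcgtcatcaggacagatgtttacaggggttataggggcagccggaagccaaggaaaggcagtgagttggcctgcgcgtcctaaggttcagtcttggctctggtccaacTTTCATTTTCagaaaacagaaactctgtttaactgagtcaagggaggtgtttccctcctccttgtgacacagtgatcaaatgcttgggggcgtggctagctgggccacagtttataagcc
Isg15 has 3 matches, which overlap and read as 1 run of capitals, Ifit1 has 2 and Rsad2 has 1.

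Upstream genes of interferon signalling differed less. 2 of 14 measured ligands, receptors and sensors were at least 2-fold higher and 0 lower, with 1 at the bound. Sting1, the adaptor of cytosolic DNA sensing, stood at −0.41 in the control, 0.76 and 0.95 with hairpins 1 and 2, 2.89 in Apc and 3.46 in Pik3ca, so that it was not highest in Apc. Ifnb1, which encodes interferon beta, was well above background in Apc at −5.64 and Pik3ca at −5.77, near the dimmest measured spots, and was at least 1.34-fold above the control. Of 11 genes of MHC class I presentation 1 was higher (Psmb8) and 1 lower (Tap1), with a median of −0.10. NF-kB and chemokine genes were higher in 9 of 19, with a median of 0.95, below the 1.34 of hairpin 2. BMP and TGF-beta genes were higher in 7 of 20 and lower in 0, with a median of 0.75, against 0.29, 0.60 and 0.67 in hairpin 1, hairpin 2 and Pik3ca.

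Mesenchymal genes were higher in Apc and, to different extents, in the other tumours. 11 of 12 measured genes were at least 2-fold higher (10 at the bound) and 0 lower, with a median of 4.01, against 0.89, 1.49 and 2.72 in hairpin 1, hairpin 2 and Pik3ca. Sparc, a collagen-binding matrix protein, stood at −3.74 in the control, −3.84 and −2.97 with hairpins 1 and 2, 1.86 in Apc and −2.46 in Pik3ca, 48.3-fold above the control and 19.9-fold above the next array. Vim, the intermediate filament vimentin, stood at −5.20, −4.44, −4.70, −1.32 and −2.43, 14.7-fold above the control. Fn1, which encodes fibronectin, stood at 0.62, 2.45, 4.49, 5.03 and 3.30. Sparc thus stood apart in Apc, while Fn1 in hairpin 2 was within 2-fold of Apc. Twist1, a factor of epithelial-mesenchymal transition, was higher in Pik3ca at −1.82 than in Apc at −2.96. Of the matrix and basement membrane genes 12 of 23 were higher (9 at the bound) and 1 lower (0 at the bound), and of the proteases and their inhibitors 7 of 10 were higher. The last count was 5, 7 and 7 of 10 in hairpin 1, hairpin 2 and Pik3ca, so the other tumours shared it. Among the proteases, Mmp7, a Wnt-responsive epithelial metalloprotease, stood at −3.31 in the control, 1.15 and 5.15 with hairpins 1 and 2, 3.46 in Apc and 6.22 in Pik3ca. It was higher in 2 other tumours than in Apc.

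Fibroblast markers were higher in part. Of 5 measured in Apc or the control, 4 were at least 2-fold higher (2 at the bound) and 0 lower. 5 of 10 were well above background in Apc, against 2 in the control, 1 and 3 with hairpins 1 and 2 and 2 in Pik3ca. Their summed signal, relative to the 75th percentile, was 0.282 in Apc and 0.0897 to 0.149 on the other arrays. Col3a1, Dpt, Lum, Pdgfrb and Postn were not well above background in Apc, and Col1a2 stood at −5.00 there against −4.89 in the control. Dcn, which encodes decorin, stood at −3.25 in Apc and was not well above background elsewhere. It was at least 7.04-fold above the control and at least 6.30-fold above the other tumours (above 3 of 3). The part of fibroblast RNA in the mesenchymal and matrix differences was not tested. On these bulk arrays a larger share of cells of a type and more RNA per cell cannot be told apart. Of 8 leukocyte markers 6 were well above background in Apc and 5 in the control, with summed signals of 17.2 and 11.7 and from 16.03 to 20.98 in the other tumours. Adgre1 and Tyrobp were not, while Cd68 stood at 3.28 in Apc against 2.51 in the control, and Ptprc was at least 2.70-fold higher. Of 7 endothelial markers 4 were well above background in Apc and 4 in the control, with summed signals of 1.64 and 4.92. Cdh5, Emcn and Tek were not. Of 5 endothelial markers measured in Apc or the control, 2 were at least 2-fold lower in Apc and 1 was higher. Emcn, well above background in the control alone, was at least 12.95-fold lower, and Esam was 3.08-fold lower. Kdr was at least 2.30-fold higher in Apc, at −4.87, and stood at −4.18 with hairpin 2 and −5.18 in Pik3ca. The part of these cell types was not tested either.

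The differences that Apc shared with every tumour included the p53 targets. 17 of 31 were at least 2-fold lower in Apc and 1 higher (Apaf1), with a median of −1.39, and the medians of the other tumours lay between −1.03 and −0.99. Over all genes 8.86%, 8.55% and 10.2% were at least 2-fold lower in hairpin 1, hairpin 2 and Pik3ca. Of the p53 targets 16 were so in Pik3ca. Ccng1 stood at 3.58 in the control, 0.77 and 1.00 with hairpins 1 and 2, 0.44 in Apc and 0.66 in Pik3ca. Cdkn1a, the cell cycle inhibitor p21, stood at 4.03, 2.08, 1.82, 1.31 and 2.65. All 4 tumours were thus below the control for both genes. Eda2r, a death-domain receptor, was well above background in the control alone and at least 58.5-fold lower in Apc. Cdkn2a, which encodes p16 and p19Arf, was 12.8-fold higher in Apc, with all tumours between 5.74 and 6.01 against 2.07 in the control.

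Onecut1, a foregut and liver transcription factor, stood at −5.10 in the control and between 0.82 and 1.05 in all 4 tumours, and Onecut2 likewise at −1.77 against 3.96 to 4.22. Xenobiotic and glutathione genes were at least 2-fold lower in 15 of 22 and higher in 4 (3 at the bound), with medians from −1.83 to −1.37 across the tumours and −1.63 in Apc. Cyp2c65, a cytochrome P450 of the gut, stood at 3.16 in the control, 0.11 and −4.66 with hairpins 1 and 2, −1.71 in Apc and −2.72 in Pik3ca.

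Gastric differentiation markers were lower in part. 4 of 6 measured chief cell markers were at least 2-fold lower and 0 higher, with a median of −2.18 against −3.14, −2.25 and −4.93 in hairpin 1, hairpin 2 and Pik3ca. Pgc, the precursor of a pepsin, stood at 3.11 in the control, 0.01 and 1.31 with hairpins 1 and 2, 0.23 in Apc and −2.41 in Pik3ca. Cym, which encodes the milk-clotting protease chymosin, went the other way in Apc alone: it stood at 5.22, −0.81, 2.83, 6.18 and −3.94, above the control by 1.95-fold in Apc and below it in the 3 other tumours. Among pit cell markers 5 of 12 were lower and 1 higher (4 and 0 at the bound), and among mucous neck cell markers 2 of 8 were lower. Among parietal cell markers 3 of 8 were lower (2 at the bound) and 1 higher. Of 15 intestinal genes 8 were lower (7 at the bound) and 1 higher, Cdh17, at −3.86 in Apc but 0.87 in Pik3ca.

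Several lists differed little from the control. 0 of 26 cell cycle genes were at least 2-fold higher or lower in Apc, with a median of 0.29, and 0 of 16 sterol and fatty acid synthesis genes were, with a median of −0.16. 2 of 15 hypoxia genes were higher, with a median of 0.03, whereas 9 were in Pik3ca, with a median of 1.14. Of 19 epithelial junction and keratin genes 2 were higher and 1 lower.

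**Figure D5:**
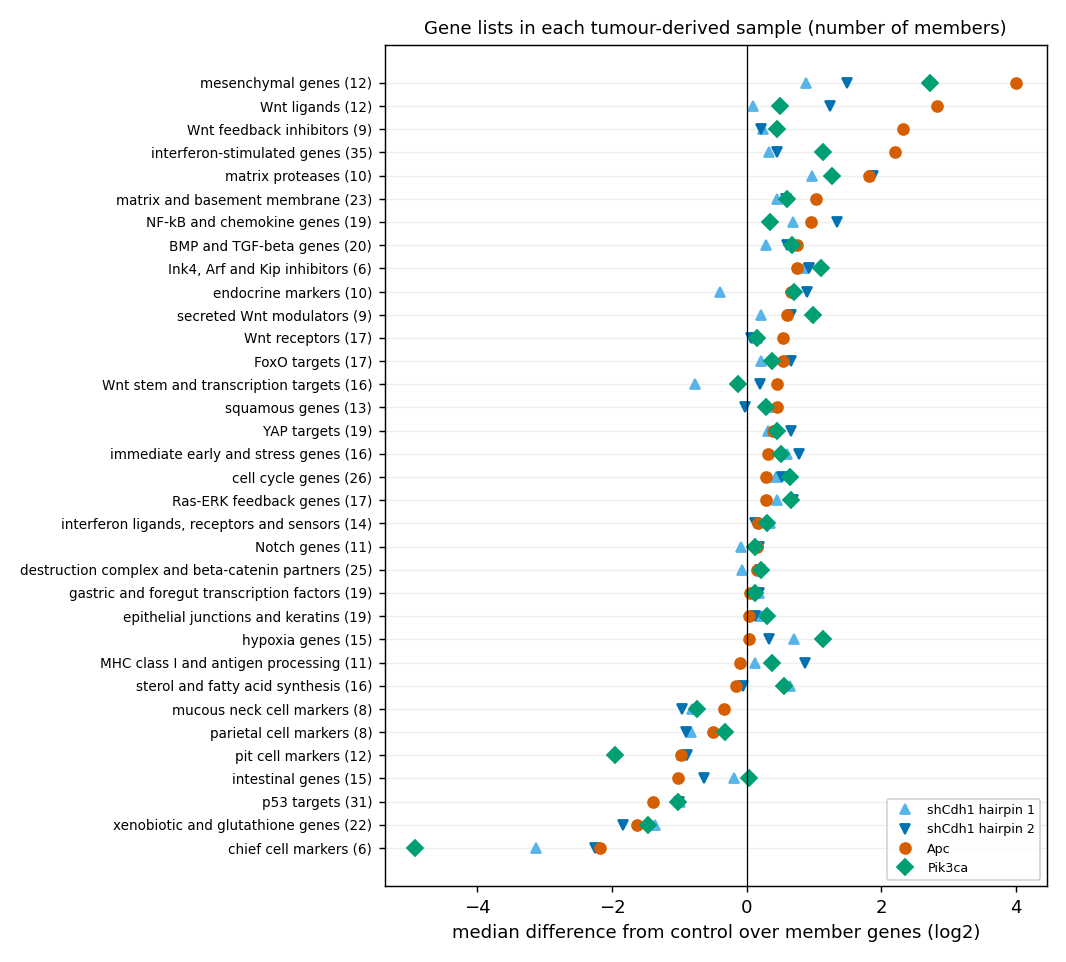
Median difference from the control (horizontal axis, log2) for gene lists (rows) in each of the 4 tumour-derived organoids, 1 marker per array. Apc lies farthest right for the Wnt feedback inhibitors (2.32), the Wnt ligands (2.82), the interferon-stimulated genes (2.20) and the mesenchymal genes (4.01). All 4 tumours lie below 0 for the p53 targets, where Apc is at −1.39.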

How the data were processed

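Total RNA of 5 organoid samples was labelled with Cy3 and hybridised to Agilent 1-colour arrays, per the labels' protocols. Per the submitters' processing notes, Agilent Feature Extraction 11.0.1.1 produced the spot signals. The deposited scanner files hold a processed signal per spot, an intensity that was background-subtracted before deposit, per the file headers. The value table deposited by the authors holds log2 values. Its differences between arrays matched those of the scanner values with a slope of 1 over 53335 probes, so scaling and direction are known and the baseline of each probe is not. Its column medians were −0.06 (control), 0.07 and 0.03 (hairpins), −0.08 (Apc) and 0.02 (Pik3ca).

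From the scanner files, log2 processed signal minus each array's 75th percentile was computed. Outlier spots (78 to 114 per array) were left out, and no spot was saturated. Repeated spots were averaged. 34549 probes were named with 1 symbol through their accession and a RefSeq table of GRCm38.p6, and 22024 were not. A gene took its probe with the highest mean signal, and 15 of 6154 members with several probes had probes at least 2-fold apart in opposite directions. It counted as well above background on an array where any of its probes was. The highest levels of genes that were not members were −5.95 in Apc and −5.78 in the control, and the dimmest levels well above background were −6.23 and −6.07. Where only one side was well above background, a gene has a bound, "at least N-fold", against the higher of the dimmest such signal and its own.

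Apc against control, with 1 array each, is descriptive, with 2-fold as threshold. limma 3.58.1 in R 4.3.3 (two-sided, Benjamini-Hochberg over 17583 genes, threshold 0.05) compared Apc with the 3 other tumours with 2 residual degrees of freedom, and Apc with the control with 1. The pair of hairpins was taken as replicates. Noise for simulated data was drawn from the difference between that pair, shuffled over genes. The simulation thus does not give the power of the fit across tumours, which also holds Pik3ca. That fit also called some unshifted genes at shifts of 4 and 6. On simulated data the fit across tumours recovered 0, 121 and 131 of 200 genes shifted by 2, 4 and 6 on the log2 scale, and the fit against the control recovered 0 at each.

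Genes were named by rank: the 12 largest differences per direction on both arrays, the 6 largest bounds, the 12 largest gaps to the nearest other array, the 8 largest shared differences, the 10 largest limma differences, and up to 8 members per list. Not every gene so named is given, and 1 gene counted in the interferon-stimulated list is not reported here. Lesion genes, Wnt markers and genes of the Wnt lists were named whatever their values, and Cym, the sex-linked genes and single list members given as contrasts were chosen after their values were seen. The members and the 40 gene lists were chosen with earlier results of these data known. Alternatives were another background correction, scalings, a floor, filters, probe means, the value table, other fold thresholds, leaving out each other tumour, and the slide as a block.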

Additional observations from a re-analysis of the deposited data

Results flagged for a closer look

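10 genes differed between the Apc tumour and the 3 other tumour-derived organoids in limma, as the largest of 43 higher genes, with Apc above 3 of 3 others for each. The differences on the log2 scale were 8.18 for Pid1, 7.84 for Gxylt2, 7.64 for Fzd10, 7.61 for Lmo2, 7.04 for Wif1, 6.64 for Stac, 6.55 for Slc22a29, 6.33 for Prkcq, 5.64 for Irx1 and 5.41 for Hspb2. For 9 of the 10 no other tumour array was well above background, so these are differences from signals near background and not sizes of change. For Lmo2 another probe was well above background on the Pik3ca array, while the probe used stood at −6.68 there, under that array's dimmest such level. All of the limma calls ended when any other tumour was left out or the slide was a block. Those fits have fewer residual degrees of freedom, so this ending cannot show that the calls are unstable.

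Of 16900 genes, 14 were at least 2-fold higher in Apc than in the control and at least 2-fold lower in all 3 other tumours, and 0 showed the reverse. With Pik3ca left out, 26 were higher in Apc and lower in both hairpins, and 0 the reverse. This difference was not tested. 10 of the 14 were well above background on both the Apc and the control array, and for 9 no other tumour array was. Where the control was not, as for Cabyr and Defa27, the lower side compares signals near background. Plxdc2, a transmembrane plexin-domain protein, stood at −4.88 in the control, −6.63 and −8.09 with hairpins 1 and 2, 1.20 in Apc and −8.13 in Pik3ca. Abcg2, an efflux transporter, stood at −2.95, −5.28, −5.24, −1.61 and −4.27, and Ctnnd2, a delta-catenin, at −4.42, −8.06, −8.08, −3.02 and −8.12. Slc22a27, Slc22a29 and Slc22a30, organic anion transporter genes of 1 family whose probes may share sequence, were also among them.

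Probes with no gene symbol entered no comparison. Of 12257 such probes well above background in Apc or the control, 184 were at least 2-fold above all 4 other arrays and well above background in Apc, 124 of them on that array alone. A further 79 probes were at least 2-fold below all 4 others and well above background on one of these. Without Pik3ca the counts were 286 above and 124 below.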

How the results depend on the processing

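The counts of 1895 higher and 1078 lower genes, and of 473 and 45 genes outside all 4 other arrays, moved with the treatment of dim signals and with the fold threshold. With normexp they were 843, 610, 184 and 7. At 1.5-fold they were 3066, 2502, 763 and 178, and at 4-fold 952, 267, 196 and 9. Requiring signals well above background on both arrays, or on all 5, left 1015 higher genes, 135 above and 18 below all others. With a floor 21 were below all others, and with no filter 125. Leaving out one other tumour gave 518 to 666 above and 61 to 101 below. The median of the Wnt feedback and target genes (1.24) was 0.97 with normexp, 0.94 with a floor, 0.94 with the mean of all probes and 0.83 with the filter on both arrays. The median of the interferon-stimulated genes (2.20) was 1.19 with normexp, 2.10 with quantile normalization, 1.94 with a floor and 1.94 with that filter. limma across tumours (44 genes) called 17 with quantile normalization, 17 with the authors' table, 12 with no filter, and 0 with the filter on all 5 arrays, the slide as a block, 1 mean per group, or any other tumour left out (668, 1083, 1060 and 896 to 1383 at an unadjusted p under 0.05). limma against the control called 0 throughout, with 1278 to 2418 at an unadjusted p under 0.05. Of 3840 values of 640 named or listed genes 2 reversed: Col6a1 from 1.11 to −0.0258 with a floor and Col6a2 from −1.25 to 0.10 with the mean of all probes. Of 305 genes at least 2-fold different, 219 stayed so in every alternative run. The median of all genes ran from −0.07 to 0.05. The cause of these changes was not tested. The limma fits across tumours with a tumour left out, the slide as a block or 1 mean per group have fewer residual degrees of freedom than the main fit. They therefore cannot show that its calls are unstable. limma against the control without a hairpin leaves no residual degrees of freedom and was not run, nor was the slide as a block, since no slide holds both arrays. No paired analysis was possible because the groups share at most 1 replicate number.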

Other observations

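Zscan4b and Tcstv3 were singled out after their values were seen. Zscan4b, of a family transiently expressed at the 2-cell stage, stood at −5.67 in the control, −0.13 and −4.10 with hairpins 1 and 2, 1.03 in Apc and 0.77 in Pik3ca. Tcstv3 stood at −4.87, 1.72, −1.94, 3.22 and 2.67, and was 273-fold above the control in Apc. Both were highest in Apc, within 2-fold of Pik3ca, and lowest in the control. Members of these families are near-identical, so the probes may not tell them apart.

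Mgmt, which repairs alkylated DNA, stood at 1.49 in the control and −2.71 in Apc, 18.3-fold lower, and was not well above background in the 3 other tumours.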
